A study of Mus musculus with 12 samples.

Results

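A core of 1676 chromatin stretches, 11.0 Mb in all, carried a call of histone H3 lysine 27 trimethylation (H3K27me3) in every library of the mouse small-intestinal epithelium. Each of the 8 deposited lists of enriched islands was laid on the 200 bp grid on which the islands were called, the windows covered in all 8 lists were kept, and adjacent windows were merged into stretches. The core holds 55074 of the 1860461 windows called in at least 1 list (2.96%). Those windows amount to 372 Mb and form 29391 stretches. The members were chosen by the island calls themselves, so the levels of the mark given below are descriptions and do not test whether the core is enriched.

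The libraries came from 4 sorted populations of mice on a mixed C57BL/6 and CD1 background, with 2 chromatin immunoprecipitation (ChIP-seq) libraries and 1 input library each. The embryonic populations were EpCAM+ small-intestinal epithelium, negative for CD31 and CD45, at the embryonic days given in their names, E12.5 and E14.5. The adult populations came from Lgr5EGFP-Cre-ERT males at postnatal day 60: intestinal stem cells (ISC) with high Lgr5-EGFP, which divide at the base of the crypts, and EpCAM+ enterocytes (AE), which absorb nutrients on the villus. The Lgr5 reporter marks stem cells through the promoter of one gene, and the labels used here do not give the sex of the embryos. The series design calls the ChIP libraries of a population biological duplicates. The lists carry no gene names, so the identity of the sorted cells was not checked against marker genes.

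H3K27me3 is placed by the Polycomb repressive complex PRC2 on chromatin of genes that are kept silent. It spreads in broad domains, and the clustered Hox genes and other genes for developmental transcription factors are its best known targets. In the intestine, PRC2 is known to act in both embryonic and adult epithelium, where silencing of genes for other tissues and other stages has to be kept through cell division.

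The amount of chromatin shared by several lists fell steeply with the number of lists and rose again at the end. A total of 204 Mb was covered in 1 list only, 70.4 Mb in 2, 36 Mb in 3, 21.2 Mb in 4, 12.2 Mb in 5, 9.0 Mb in 6 and 7.94 Mb in 7, against 11.0 Mb in all 8. Length covered in at least 1 list of each of the 4 populations came to 31.6 Mb, of which the core is 34.9%. The lists themselves differed in size, from 60.8 Mb in ISC replicate 2 to 241 Mb in ISC replicate 1, and 1 list weighed most on where the core stops. E12.5 replicate 1, the list with the fewest islands (6171) and a covered length of 62.5 Mb, was the missing list for 4.19 Mb of the 7.94 Mb covered in 7 lists (52.8%). ISC replicate 2 was the missing list for 1.29 Mb (16.2%), and E14.5 replicate 2 for 0.0364 Mb.

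**Figure D1:**
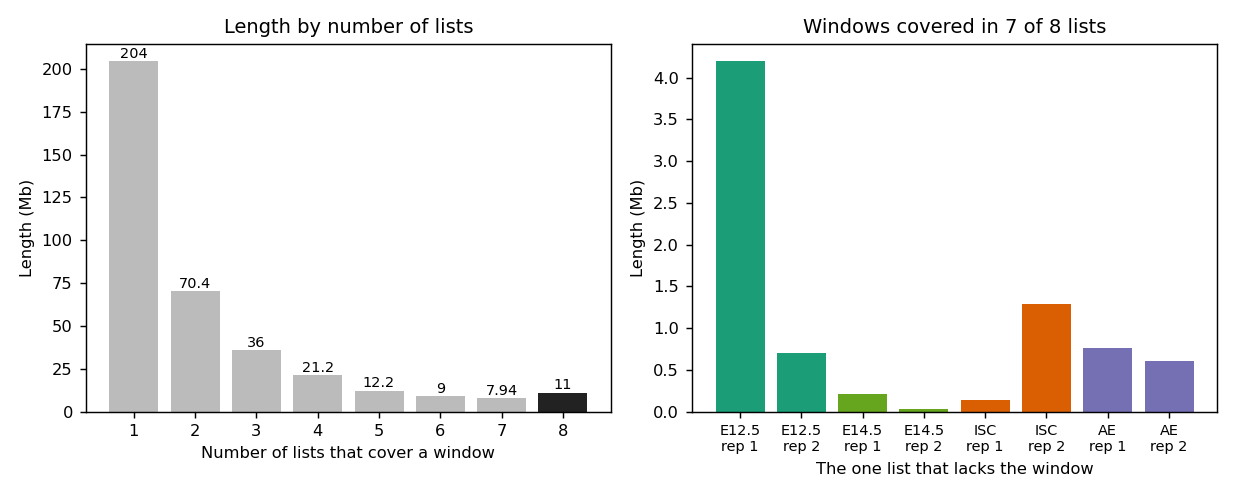
Left, length in Mb of the 200 bp windows covered in exactly 1 to 8 lists, with the core in black. Right, length in Mb of the windows covered in 7 of 8 lists, by the list that lacks them. The 11.0 Mb core exceeds the 7.94 Mb covered in 7 lists, and E12.5 replicate 1 is the missing list for 4.19 Mb.

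Stretches just outside the rule and apart from the core lay, by their median, below the typical core stretch in the lists that did call them. For each list the level of a stretch was read as the ChIP reads divided by the control reads of the island over it, and then divided by the median of that ratio over the core stretches of the same list. This relative ratio is free of library size, and 1 is the typical core stretch. The 1659 stretches that lacked only E12.5 replicate 1 had a median relative ratio of 0.938 in the other 7 lists. Those that touch the core often carry the value of the same island, and the 858 that did not touch it had a median of 0.881. Over the 8 possible missing lists the median of the stretches apart from the core ran from 0.738 (11 stretches that lacked only ISC replicate 1) to 0.905. Just inside the rule, 311 stretches (18.6%) had a false discovery rate (FDR, the authors' value per island) above 0.001 in their weakest list, against a limit of 0.01 in all lists. The weakest was a 5.0 kb stretch at chr9:62522801-62527800, with an FDR of 0.00997 in AE replicate 1. At the other end, 431 stretches (25.7%) had an FDR of 1e-10 or less in all 8 lists. The weakest list of a stretch was E12.5 replicate 1 in 1021 cases (60.9%), ISC replicate 2 in 293 (17.5%) and never ISC replicate 1.

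Most core stretches were a few kilobases long, with a small number of broad domains. The median length was 5 kb, the quartiles 3.2 and 8 kb, and the range 0.2 to 68 kb. Single windows made up 28 stretches, and 92 were shorter than 1 kb. The 281 stretches of 10 kb or more (16.8%) held 42.3% of the core length, and the longest 374 (22.3%) held 50% of it. There were 62 stretches of 20 kb or more and 15 of 30 kb or more.

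The stretches were clustered along the chromosomes and separated by wide deserts. Over 1656 pairs of neighbours on a chromosome the median distance was 199.7 kb, with quartiles of 4.2 and 1314 kb. Distances of 10 kb or less made up 498 pairs (30.1%), and 472 pairs (28.5%) lay more than 1 Mb apart. The widest interval without core was 49.1 Mb on chromosome 16, at chr16:35660801-84772800, followed by 32.4 Mb at chrX:58152001-90541400. Grouping stretches that lie within 50 kb of each other gave 1043 neighbourhoods, of which 721 held 1 stretch and 43 held 5 or more. Neighbourhoods of at least 2 stretches held 955 stretches and 57.8% of the core length.

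**Figure D2:**
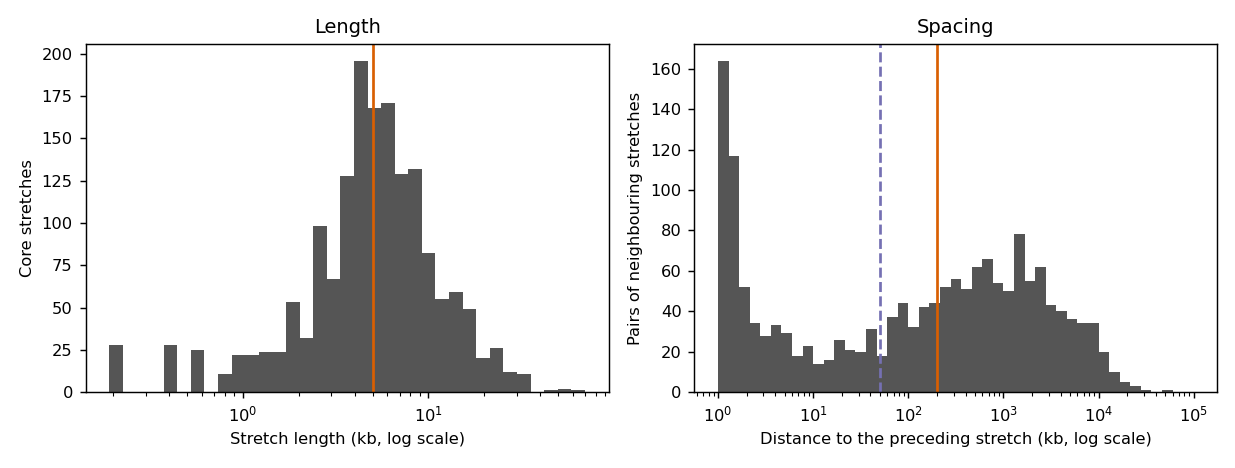
Number of core stretches by length (left) and of pairs of neighbouring stretches by distance (right), both in kb on a log scale. Orange lines mark the medians, 5 kb and 199.7 kb, and the dashed line marks the 50 kb used to group stretches. Distances fall into a peak under 10 kb and a broad hump around 1 Mb.

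Many of the short distances were breaks in single lists. Of the 3352 edges of core stretches, 2969 (88.6%) coincided with an island border in 1 list alone, and at 17 edges 4 or more lists ended together. E12.5 replicate 1 alone set 878 edges, ISC replicate 2 alone 613, E12.5 replicate 2 alone 546 and AE replicate 2 alone 509, while ISC replicate 1 alone set 18. The 498 breaks of 10 kb or less touched an uncovered window of E12.5 replicate 1 in 38.0% of cases, of ISC replicate 2 in 37.3%, of AE replicate 2 in 36.1% and of ISC replicate 1 in 2.61%. AE replicate 2 was the only list broken there in 78 cases, E12.5 replicate 1 in 77, ISC replicate 2 in 75 and E12.5 replicate 2 in 60. The exact ends of a stretch, and how many pieces a domain falls into, therefore rest on the lists with the shorter islands.

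Chromosome 2 had the most core stretches, 169, followed by chromosome 5 with 146, chromosome 7 with 144 and chromosome 11 with 143. As a share of the length called anywhere on the chromosome, the core was largest on chromosome 19 (5.64%) and chromosome 15 (4.08%), and smallest among the autosomes on chromosomes 18 (1.65%) and 16 (1.68%). Chromosome X held 2 core stretches and 0.235% of its called length. Its covered length was 0.270 and 1.06 Mb in the E12.5 lists, 2.24 and 3.16 Mb in the E14.5 lists, 0.325 and 0.183 Mb in the ISC lists and 0.228 and 0.246 Mb in the AE lists. On chromosome X both E14.5 lists thus lay above all other lists, and the X-linked islands of embryos were for the most part not in the core. Both X-linked core stretches lay low in control reads, with 12.9 per kb at chrX:58146001-58152000 and 13.2 per kb at chrX:90541401-90546200, against a median over all stretches of 22. No core stretch lay on chromosome Y.

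The 4 neighbourhoods with the most core length lie at the 4 Hox clusters, whose homeodomain transcription factors set position along the body axis. The lists give coordinates only, and these names come from general knowledge of the mm9 map, so overlap with single genes or exons was not measured. The HoxB neighbourhood, chr11:96024401-96230400, held 11 stretches with 135 kb of core in a span of 206 kb. The HoxC neighbourhood, chr15:102724801-102860000, held 7 stretches with 121.8 kb of core in 135.2 kb. The HoxA neighbourhood, chr6:52114001-52276400, held 8 stretches with 110.4 kb in 162.4 kb, and the HoxD neighbourhood, chr2:74483601-74604000, held 7 stretches with 107.6 kb in 120.4 kb. HoxC and HoxD were covered nearly from end to end (90.1% and 89.4% of the span), while core filled 65.5% of the HoxB span and 68.0% of the HoxA span.

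The uncovered parts differed between lists. In HoxB the widest gap between core stretches was 40.4 kb, at chr11:96070801-96111200. It was covered to 4.95% and 66.8% in the E12.5 lists, to 54.5% and 95.5% in the E14.5 lists, to 100% and 56.4% in the ISC lists and to 93.6% and 77.2% in the AE lists. Each list thus called at least a little of it. In E12.5 replicate 1 this was only the end of an island that reached in from the adjoining core, and the rest of the gap held no call in that list. The gap thus marks where calls vary between lists. In HoxA the widest gap was 25.8 kb, at chr6:52121401-52147200, between neighbouring core stretches. That gap was covered to 0% and 5.43% in the E12.5 lists and to 80.6% and 76.7% in the E14.5 lists. Both ISC lists and AE replicate 1 covered 100% of it, and AE replicate 2 covered 94.6%. All 4 adult lists therefore covered more of the HoxA gap than any embryonic list, and both E14.5 lists more than both E12.5 lists. This gap was singled out after its coverage was seen, and 2 libraries a population are too few for a test of a single step. In HoxC and HoxD the widest gaps were 5.6 and 5 kb, and AE replicate 2 covered 0% and 24% of them.

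**Figure D3:**
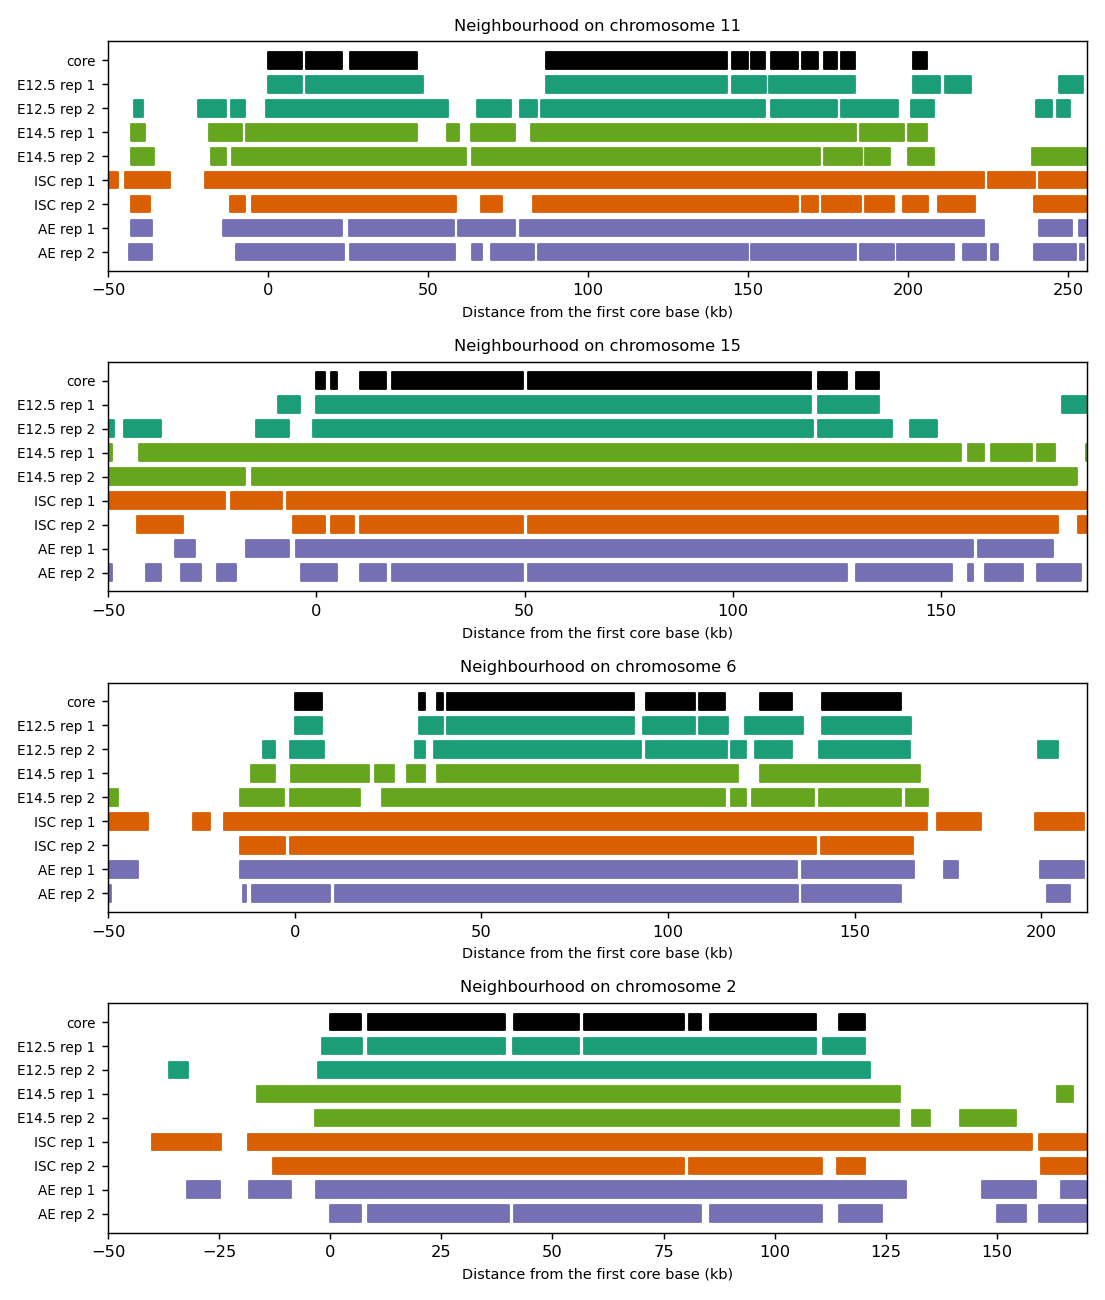
The 4 neighbourhoods with the most core, in kb from their first core base: core stretches in black and the islands of each list in colour by population (E12.5, E14.5, ISC, AE). From the top these are HoxB on chromosome 11, HoxC on chromosome 15, HoxA on chromosome 6 and HoxD on chromosome 2. ISC replicate 1 spans each with 1 island, and the left gap of the HoxA neighbourhood is filled in the adult lists.

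The number of islands over these neighbourhoods showed how differently the lists cut the same domain. ISC replicate 1 covered the core of each of the 4 Hox neighbourhoods with 1 island, up to 270.2 kb long at HoxC. E12.5 replicate 1 used 6 islands at HoxB, 2 at HoxC, 7 at HoxA and 5 at HoxD, and AE replicate 2 used 5, 5, 3 and 5. Pooling the reads of these islands, the relative ratio at HoxC was 1.30 and 1.66 in the E12.5 lists, 1.71 and 1.86 in the E14.5 lists, 1.73 and 1.41 in the ISC lists and 1.56 and 1.36 in the AE lists. HoxC was therefore above the typical core stretch in every list, and embryonic and adult values overlapped. At HoxD the values were 1.29 and 1.51, 1.67 and 2.00, 1.73 and 1.39, and 1.47 and 1.38 in the same order. At HoxA they ran from 1.22 to 1.60 in the embryonic and from 1.32 to 2.00 in the adult lists, and at HoxB from 1.16 to 1.41 and from 1.25 to 1.70. All 4 Hox neighbourhoods lay above 1 in all 8 lists, with ISC replicate 1 the highest at HoxA and HoxB and E14.5 replicate 2 the highest at HoxC and HoxD.

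The next neighbourhoods by core length were smaller. One at chr19:45138401-45380600 held 9 stretches with 92.4 kb of core, with a pooled relative ratio of 0.996 to 1.36. One at chr15:78170001-78274800 held 8 stretches with 73.6 kb and a pooled relative ratio of 0.905 to 1.14. Another, chr1:78135401-78218200, lies at Pax3, a transcription factor gene of neural crest and muscle precursors, and held 6 stretches with 72.6 kb. Its pooled relative ratio was 1.27 and 1.36 in the E12.5 lists, 1.66 and 1.82 in the E14.5 lists, 1.46 and 1.23 in the ISC lists and 1.44 and 1.2 in the AE lists. The eighth, chr1:74814401-74941000, held 5 stretches with 70.4 kb and ran from 0.930 to 1.28. Large neighbourhoods were thus not always high in level: the one on chromosome 15 outside the Hox cluster sat around the median core stretch.

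Among single stretches the longest was 68.0 kb in HoxC, at chr15:102775601-102843600. Its ratio of ChIP to control reads was 1.17 and 2.93 in the E12.5 lists, 3.59 and 3.07 in the E14.5 lists, 3.16 and 1.67 in the ISC lists and 3.44 and 2.11 in the AE lists. These raw ratios carry the size of each library and are not comparable between lists. The relative ratios were 1.31 and 1.71, 1.71 and 1.86, 1.73 and 1.43, and 1.56 and 1.41. In every list this stretch was therefore at least 1.31 times the typical one, and the embryonic and adult values overlapped. The next longest were 56.6 kb in HoxB (chr11:96111201-96167800, relative ratio 1.26 to 1.70) and 50.0 kb in HoxA (chr6:52154801-52204800, 1.33 to 2.00).

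Outside the Hox clusters, the longest stretch was 45.8 kb at chr4:115594001-115639800. Its relative ratio was close to the typical core stretch and varied little, from 1.08 to 1.17 over the 8 lists. The 35.6 kb stretch at chr2:105498601-105534200 lies at Pax6, a transcription factor gene of eye, brain and pancreas. It had relative ratios of 1.37 and 1.70 in the E12.5 lists, 1.92 and 2.10 in the E14.5 lists, 1.75 and 1.32 in the ISC lists and 1.35 and 1.35 in the AE lists. Both E14.5 lists were the highest at Pax6, but E12.5 replicate 1 lay among the adult values. The relative ratio removes the size of a library but not the spread of a list. The upper quartile of the stretch ratios was 1.53 and 1.63 times the lower one in the E14.5 lists and 1.56 times in E12.5 replicate 2. It was 1.27 times the lower one in E12.5 replicate 1, 1.45 and 1.32 times in the ISC lists and 1.34 and 1.31 times in the AE lists. The part of this spread in the high E14.5 values was not tested. The 34.8 kb stretch at chr3:99036201-99071000 lies at Tbx15, a T-box factor gene of skeleton and limb, and was also highest in the E14.5 lists (1.8 and 1.96), with 1.19 in AE replicate 2 as the lowest. The stretch at Pax3 (34 kb, chr1:78184201-78218200) had 1.66 and 1.82 in the E14.5 lists, against 1.29 to 1.46 in the other 6 lists. The remaining 5 of the 12 longest, between 31.4 and 33.8 kb, lie at chr6:83641401-83675200, chr9:91252201-91285600, chr10:42282801-42315000, chr5:106873801-106905600 and chr19:43667801-43699200. The one on chromosome 9 was the highest of the 12, with relative ratios from 1.37 to 2.19. For all 12 longest stretches the embryonic and adult libraries overlapped.

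The highest relative ratios were found in shorter stretches, but their values are those of islands that reached well beyond them in most lists. By the median over the 8 lists these were 1.79 at chr12:50473801-50483800 (10.0 kb), 1.79 at chr4:88931401-88933000 (1.6 kb), 1.76 at the second X-linked stretch and 1.74 at chr2:146909001-146912200 (3.2 kb). The island over the one on chromosome 4 was 1.6 kb long in AE replicate 2, with 60 ChIP and 19 control reads. In the other lists it was 12.4 to 51.4 kb long. Control reads were below the median of 22 per kb in these 4 stretches, at 14.8, 16.8, 13.2 and 12.3 per kb, and the part of this in their ratios was not tested. The lowest were 0.665 at chr13:73385601-73389000, 0.709 at the neighbours chr5:140448601-140455800 and chr5:140457001-140458600, which share an island in 7 lists, and 0.717 at chr7:108590401-108592000. Their control density was 22 to 25.3 per kb. Across the 1676 stretches the ratio fell with control density in each list (Spearman's rho from -0.396 to -0.619). Ratio and density share the control reads, so this is a description of how the measure behaves.

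Longer stretches had higher ratios. The median relative ratio was 0.932 in the 207 stretches under 2 kb, 0.950 in the 595 of 2 to 5 kb, 0.984 in the 593 of 5 to 10 kb, 1.16 in the 219 of 10 to 20 kb and 1.31 in the 62 of 20 kb or more. Median control density in these classes stayed between 21.5 and 22.4 per kb. Within lists, Spearman's rho between ratio and stretch length over the 1676 stretches was 0.178 to 0.367. Between ratio and the length of the island over the stretch, rho changed sign between lists. It was -0.105 in E12.5 replicate 1 and -0.141 in AE replicate 2, and positive in the other lists, up to 0.358 in E12.5 replicate 2. Length and level come from the same calls and stretches of 1 island share a value, so these correlations carry no test.

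Control reads, which show the signal without the antibody, did not reach far above their median over the core. The median control density of a stretch over the 8 lists ranged from 12.2 to 29.1 reads per kb, and 0 of 1676 exceeded 1.5 times the median. The highest, 29.1 per kb, was a 1.4 kb stretch at chr4:155628601-155630000, whose islands were 1.4 or 1.6 kb long in all 8 lists. Its relative ratio was 1.61 and 2.29, 1.71 and 2.37, 1.94 and 1.43, and 1.09 and 1.19 in the order E12.5, E14.5, ISC and AE. Next came a 4.2 kb stretch on chromosome 18 (27.9 per kb) and one at chr10:126484801-126488800 (27.9 per kb).

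The islands that hold the core were few, long and rich in reads. They numbered 1138 in ISC replicate 1 to 1364 in E12.5 replicate 1, which was 6.54% to 22.1% of the islands of a list. Their median length was 10.6 and 10.4 kb in the E12.5 lists, 15.0 and 18.5 kb in the E14.5 lists, 25.6 and 11.2 kb in the ISC lists and 14.6 and 12.8 kb in the AE lists. The other islands were shorter in each list, with medians of 4.4 to 10.0 kb. Between 22.6% (ISC replicate 1) and 42.1% (E14.5 replicate 1) of the ChIP reads that a list holds lay in these islands. Most of them held 1 stretch, and at most 5 to 11 stretches shared an island, depending on the list. A long island is more likely to hold core by its length alone, so these values describe the rule as well as the chromatin.

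Within each list, islands with core had more ChIP reads per control read than the other islands. The pooled ratio was 0.918 against 0.790 in E12.5 replicate 1 and 1.85 against 1.06 in replicate 2. It was 2.25 against 1.45 and 1.75 against 0.980 in the E14.5 lists. In the adult lists it was 1.86 against 1.17 and 1.22 against 1.01 in the ISC lists, and 2.26 against 2.12 and 1.49 against 1.26 in the AE lists. As a quotient of the islands with core over the others, this was 1.16 and 1.75 in the E12.5 lists, 1.54 and 1.79 in the E14.5 lists, 1.58 and 1.21 in the ISC lists and 1.06 and 1.18 in the AE lists. The mean of the 2 libraries was lowest in enterocytes (1.12, against 1.46 in the E12.5 lists, 1.67 in the E14.5 lists and 1.40 in the ISC lists). E12.5 replicate 1 lay between the AE values, and the replicates of E12.5 differed 1.51-fold, so E12.5 and AE cannot be put in order. Both E14.5 values lay above both AE values, a step that 2 libraries against 2 cannot test. Control reads per kb in the islands with core, relative to the other islands, were highest in both AE lists. This relative density was 1.079 in AE replicate 2 and higher still in AE replicate 1, against 0.937 to 1.070 in the other lists. The E14.5 lists came next in this relative density, at 1.070 and 1.062, and had the highest mean quotient. A higher control density lowers the quotient, and its part in the low AE values was not tested.

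**Figure D4:**
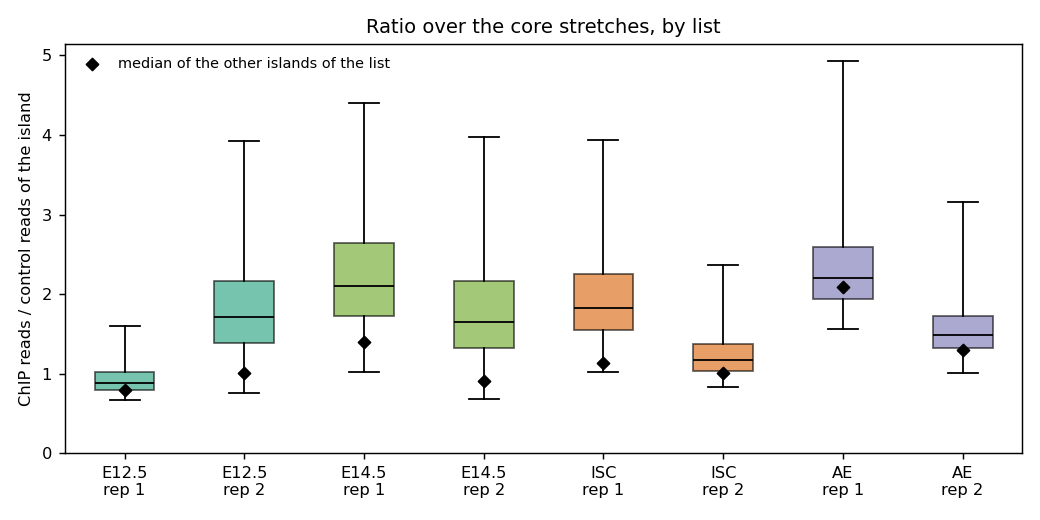
Ratio of ChIP to control reads of the island over each of the 1676 core stretches, by list. Boxes give quartiles and median, whiskers the lowest and highest stretch, and diamonds the median of the islands without core. The ratio carries library size and is read within a list only. The diamond lies below the core median in each list and nearest to it in AE replicate 1.

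The rank of the core among the islands of its list also differed between lists. Among all islands of a list ordered by ratio, the median stretch lay at percentile 75.9 and 90.8 in the E12.5 lists and 85.4 and 89.2 in the E14.5 lists. In the adult lists it lay at percentile 94.6 and 75.3 in the ISC lists and 59.5 and 73.7 in the AE lists. Of the 100 islands with the highest ratio in a list, 81 and 71 held core in E12.5 and 70 and 74 in E14.5. In the ISC lists 64 and 58 of them held core, but 2 and 8 in the AE lists. The share with core among all islands was 15.1% in AE replicate 1 and 11.4% in AE replicate 2. It was 6.54% (ISC replicate 1) to 22.1% (E12.5 replicate 1) in the other lists. Both AE counts thus lay below the share of their own list, and the counts of the other lists above it. The top islands of the AE lists were short, with medians of 5.4 and 2.4 kb and 42.5 and 24.5 control reads, against 7.9 to 21.6 kb elsewhere. Among islands of 10 kb or more, a limit set after these values were seen, the count for AE replicate 2 was 81 of 100, against 84 to 97 in the embryonic and ISC lists, and it was 22 in AE replicate 1. Of all islands of that length, 30.8% held core in AE replicate 2 and 35.7% in AE replicate 1, with 11.2% (ISC replicate 1) to 50.8% (E12.5 replicate 2) in the other lists. The low count of AE replicate 2 was therefore not seen among its longer islands, while in AE replicate 1 the count stayed below the share among all its islands of that length.

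Embryonic and adult libraries did not differ beyond their spread in the measures of the core as a whole. The quotient of core over other islands was 1.56 ± 0.287 (SD, n = 4) in embryonic and 1.26 ± 0.223 (n = 4) in adult libraries. The difference of 0.301 had p = 0.2 (two-sided, exact permutation of the 8 libraries, 70 arrangements). Islands with core were 22.1% of the islands in E12.5 replicate 1 and 6.54% in ISC replicate 1. The other islands in the quotient thus also depend on how much a list calls. With each list cut to equal covered length the difference was 0.288 (exact permutation p = 0.0857). Core made up 52.8 ± 11.1% of the length of the islands that hold it in embryonic and 46.4 ± 12.1% in adult libraries (n = 4 each, exact permutation p = 0.486). This share depends in part on how much a list calls, since the lists with the shorter islands set the core. It was 62.7% in E12.5 replicate 1, which covered 62.5 Mb, and 29.7% in ISC replicate 1, which covered 241 Mb. The test of the share therefore cannot tell the reach of the mark from the amount called. Control reads per kb in the islands with core relative to the other islands were 1.01 ± 0.0641 and 1.06 ± 0.112 (n = 4 each, exact permutation p = 0.543). All 3 had a Benjamini-Hochberg adjusted p of 0.543 by the exact permutation test, and the smallest p that the design allows is 0.0286. These tests count replicates of a population as separate libraries, and replicates share a control.

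Stretch by stretch, the relative ratio of 1516 members overlapped between embryonic and adult libraries. It was higher in all 4 embryonic than in all 4 adult libraries in 83 stretches (4.95%) and higher in all 4 adult libraries in 77 (4.59%). When ratios were divided by the median of all islands of a list in place of the core stretches, the counts were 44 (2.63%) and 7 (0.418%), so the balance between the directions depends on the scaling. Counted by neighbourhood, with all islands pooled and the ratio divided by that of the median neighbourhood of the list, 45 (4.31%) were embryonic higher and 58 (5.56%) adult higher. In the stretches of 10 to 20 kb 9.13% were embryonic higher and 3.65% adult higher, and of the 62 of 20 kb or more 5 and 0. When a library was left out, the core was formed anew from the remaining lists, so the number of stretches changed too. Leaving out E12.5 replicate 1 gave counts of 330 and 341 among 2457 stretches, and leaving out ISC replicate 1 gave 152 and 113 among 1687. Any library left out makes an overlap less likely by construction, and these were the exclusions with the largest counts of embryonic higher stretches.

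The stretch with the widest gap in favour of the embryo was 3.4 kb at chr2:19351601-19355000. Its relative ratio was 1.15 and 1.40 in the E12.5 lists and 1.33 and 1.43 in the E14.5 lists, against 0.725 and 0.925 in the ISC lists and 0.834 and 0.873 in the AE lists. The lowest embryonic library was 1.25 times the highest adult one. The islands over it were 10.6 to 48.2 kb long in embryonic and 6.6 to 20.2 kb in adult libraries. Next came a 2.6 kb stretch at chr2:149655001-149657600 (1.2 to 1.63 against 0.887 to 1.01), a 4.0 kb stretch on chromosome 18, a 2.8 kb stretch at chr9:52485201-52488000 (1.07 to 1.45 against 0.826 to 0.925) and a 13.8 kb stretch at chr16:18579401-18593200 (1.22 to 1.56 against 0.850 to 1.06). At chr2:149655001-149657600 the control density also moved, from 17.6 to 17.9 reads per kb in embryonic to 24.2 to 29.1 in adult libraries, and its part in the ratio was not tested. With all islands of the neighbourhood pooled, 4 of these 5 kept the separation, and the one on chromosome 18 overlapped.

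In the other direction the widest gap was at chr3:96125201-96127600, 2.4 kb long. Its relative ratio was 0.951 and 0.626 in the E12.5 lists and 0.924 and 0.882 in the E14.5 lists, against 2.03 and 1.51 in the ISC lists and 1.68 and 1.57 in the AE lists. The lowest adult library was 1.58 times the highest embryonic one. The island over it was 5.4 to 7.6 kb long in the embryonic libraries, 25.2 to 26.8 kb in 3 adult libraries and 4.8 kb in AE replicate 2. The island in AE replicate 2 held 110 ChIP and 47 control reads, and the part of island length in the ratio was not tested. Control density was 18.2 to 20.6 reads per kb in embryonic and 9.79 to 16.9 in adult libraries, which moves with the ratio, and its part was not tested. Pooled over its neighbourhood and relative to the median neighbourhood, the values were 0.848 to 1.1 in embryonic and 1.31 to 1.49 in adult libraries.

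The second was the 7.4 kb stretch of the HoxA neighbourhood at chr6:52114001-52121400, next to the 25.8 kb gap described above. Its relative ratio was 0.888 and 0.741 in the E12.5 lists, 0.674 and 0.730 in the E14.5 lists, 2.00 and 1.39 in the ISC lists and 1.39 and 1.23 in the AE lists. The island that held it was 7.4 and 9.0 kb long at E12.5 and 21.0 and 18.8 kb at E14.5, but 188.4 and 141.0 kb in ISC and 149.4 kb in AE replicate 1, where it took in most of the HoxA neighbourhood. In those 3 libraries the value is that of the whole domain. In AE replicate 2 the island was 20.8 kb long, and the relative ratio was 1.23 against at most 0.888 in the embryonic libraries. That island, chr6:52102601-52123400, reached away from the gap. The E14.5 islands, chr6:52113001-52134000 and chr6:52112601-52131400, reached into it. These ratios are therefore of partly different chromatin, although the islands were similar in length. Control density was 23.2 to 27.9 reads per kb in embryonic and 20.2 to 21.6 in adult libraries, and its part in the ratio was not tested. Over the whole HoxA neighbourhood, as given above, embryonic and adult values overlapped.

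The other 3 named stretches that were higher in adult libraries had smaller gaps. They were 4.4 kb at chr15:102185401-102189800 (0.762 to 0.861 in embryonic against 1.17 to 1.36 in adult libraries), 5.6 kb at chr17:57286001-57291600 (0.751 to 0.793 against 0.973 to 1.11) and 4.2 kb at chr1:174279001-174283200 (0.603 to 0.806 against 0.985 to 1.07). Control density again moved with the ratio at chr15:102185401-102189800 (24.4 to 29.2 reads per kb in embryonic against 20.1 to 21.5 in adult libraries) and at chr1:174279001-174283200 (25 to 28.8 against 21.2 to 22.4), and its part was not tested. All 3 stayed apart when their neighbourhoods were pooled. Restricting all members to the 393 stretches whose island was at most 3 times as long in the longest as in the shortest list, a limit added after these values were seen, left 24 embryonic higher (6.11%) and 14 adult higher (3.56%).

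**Figure D5:**
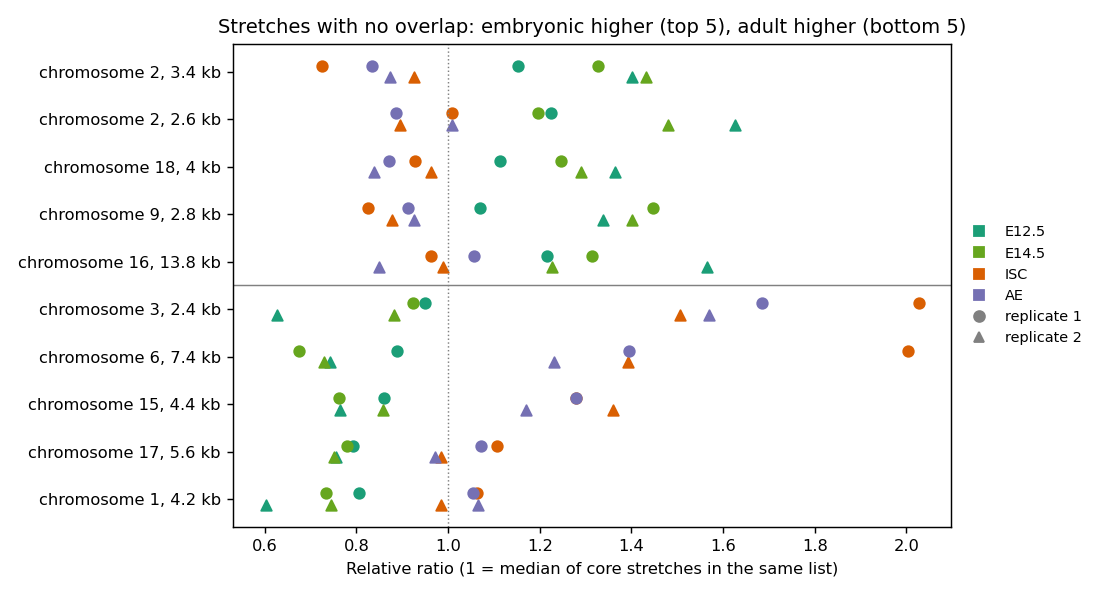
Relative ratio in each of the 8 libraries for the 5 stretches with the widest gap in either direction, named by chromosome and length in kb. Colours are populations and symbols replicates, and 1 is the median core stretch of a list. Above the line all 4 embryonic libraries exceed all 4 adult ones, and below it the reverse holds.

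Replicates ranked the core stretches more alike than other pairs by the median, but not in every case. Spearman's rho over the 1676 stretches was 0.610 to 0.844 (median 0.644) in the 4 pairs of replicates, 0.491 to 0.692 (median 0.575) in the 8 pairs of one age class and 0.369 to 0.689 (median 0.521) in the 16 pairs of an embryonic with an adult library. ISC replicate 1 was more like both E14.5 lists (0.659 and 0.689) and AE replicate 1 (0.651) than its own replicate (0.610), and E12.5 replicate 2 more like both E14.5 lists (0.692 and 0.673) than its own (0.625). Replicates share their control reads, which enter both ratios, and these values are descriptions.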

How the data were processed

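The 8 deposited lists, 1 per ChIP library, have no header. By their values the columns hold an interval, then reads of ChIP and of control, a p-value, a fold and an FDR. SICER 1.1, Bowtie 1.1.2, SAMtools 1.2, bcl2fastq 1.8.4 and build mm9 are named in the submitters' processing notes. The read counts of islands are whole numbers as deposited. The authors' fold is their scaled ratio of ChIP over control, and the p-value and FDR are also as deposited by the authors. Islands were called per library, and their ChIP reads numbered 1171968 to 6627853 per list. Library totals are not given in the sources used here, so no count test across libraries was run.

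The 200 bp grid was filled list by list in Python 3.11.15 with numpy 2.4.6, pandas 2.3.3 and scipy 1.17.1, and the steps were tested on simulated lists with a planted core. A stretch takes the value of the island over it, which can reach beyond the stretch, and stretches in 1 island share a value. Coordinates are 1-based. Libraries were grouped by the labels into 4 populations of 2, and the 4 inputs enter through the control reads. The 3 permutation tests compared the 4 embryonic with the 4 adult libraries and were adjusted together. Where nothing says that duplicates came from separate animals, p-values measure only the spread between these libraries.

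Regions named were the 12 longest stretches, the 8 neighbourhoods with most core, those on chromosome X, the 2 widest intervals without core, the 4 highest and 4 lowest relative ratios, the 5 widest gaps in either direction with at least 1 kb, and the 3 highest control densities. The members and lists were chosen with earlier results of these data known. The RefSeq gene table given with the files is of assembly GRCm38.p6, not mm9, so promoters, gene lists and cell type markers were not analysed here and no sequence is printed. Alternatives were stricter FDR or fold, equal covered length, wider joining, other scalings, each library left out, and the replicate number as a block.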

Additional observations from a re-analysis of the deposited data

Results flagged for a closer look

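In 9 of 76 groups of 4 libraries, taken over 35 named stretches and the measures of the whole core, 1 library stood apart. Its gap to its nearest neighbour, as a share of the group's range, was past Dixon's critical value. That value is set so that about 1 group in 20 of independent draws passes it. Many stretches were named for extreme values and each group joins different populations, so the 9 cannot be set against that rate. ISC replicate 1 was the highest adult library at 4 long stretches. Its relative ratio was 1.70 at chr11:96111201-96167800 in HoxB (the others 1.26 to 1.32) and 2.00 at chr6:52154801-52204800 in HoxA (1.34 to 1.39). It was 1.75 at chr2:105498601-105534200 at Pax6 (1.32 to 1.35) and 1.75 at chr19:43667801-43699200 (1.22 to 1.29). ISC replicate 2 was the lowest adult library at chr1:174279001-174283200, with 0.985 (1.05 to 1.07).

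E12.5 replicate 1 was the highest embryonic library at 2 stretches of low ratio, with 0.808 at chr5:140448601-140455800 (0.510 to 0.531) and 0.900 at chr7:108590401-108592000 (0.532 to 0.595). At chr9:62522801-62527800, the stretch with the weakest FDR, E12.5 replicate 2 was the lowest embryonic library with 0.657 (0.876 to 0.908), and ISC replicate 2 the highest adult one with 0.989 (0.711 to 0.757).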

How the results depend on the processing

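The core shrank under stricter calls: an FDR limit of 1e-10 left 431 stretches (5.19 Mb), and a fold limit of 1.5 left 504 stretches (4.94 Mb). With each list cut to the covered length of the smallest, 1312 stretches and 9.66 Mb were left. In these 3 settings each of the 12 longest stretches stayed core over its full length. Without 1 library in turn the core held 1650 to 2457 stretches and 11.1 to 15.2 Mb, the most without E12.5 replicate 1. The difference in the quotient of core over other islands stayed between 0.225 and 0.398 (exact permutation p 0.0857 to 0.314), and that in core share between 0.773 and 10.7 percentage points (p 0.2 to 0.943). The difference in control density was -0.0486 and ranged from -0.101 to 0.000438 when 1 library was left out, turning only without AE replicate 1 (exact permutation p = 1). It was -0.156 with the FDR limit and -0.119 with the fold limit (exact permutation p = 0.429 and 0.143). With the replicate number as a block the 3 exact permutation p-values were 0.167, 0.5 and 0.556. Deviations of same-numbered replicates correlated between -0.152 and 0.167 across populations. The scaling to the median stretch of a list removes any shift common to all stretches. These values therefore cannot show whether same-numbered libraries shared a batch.

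Embryonic higher and adult higher stretches numbered 44 and 7 with the scaling to all islands and 24 and 14 in islands of like length. Of the 1043 pooled neighbourhoods, 45 (4.31%) were embryonic higher and 58 (5.56%) adult higher. Leaving out a library gave 108 to 330 embryonic higher and 90 to 341 adult higher, with the highest counts without E12.5 replicate 1. These counts are among the 1650 to 2457 stretches of the core formed anew each time. The cause was not tested. The lists hold only called islands, so a level below the call is unknown, and E12.5 replicate 1, with the fewest ChIP reads in islands, limits the core most.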
